A study of Mus musculus with 14 samples.

Results

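The Eya genes (Eya1, Eya2, Eya3, Eya4) and the Six-family genes Six4 and Six5 were examined in T cells sorted from mouse spleen. These 6 genes, out of 24091 in the counts table, were chosen by gene family around Eya1, and Eya1 itself was picked from its measured difference between the groups, near absent in one and clearly expressed in the other. The values of Eya1 are therefore a description and carry no test. All mice carried the SCLtTA/BCR-ABL transgenes on a CD45.2 C57Bl/6j background, in which the Scl enhancer drives a tet-off activator and withdrawal of tetracycline induces BCR-ABL in stem and progenitor cells. Chronic phase (CP) CML was represented by 8 Mir142+/+BCR-ABL mice and blast crisis (BC) CML by 6 Mir142−/−BCR-ABL mice. All were aged 6 to 10 weeks and induced for 3 weeks. The paper used male and female mice, and the sex of each mouse analysed here is not given in the sources used. The Mir142 deletion is global, so every cell type of the BC CML mice lacks it. The deposited names of the mice carry a different number in each group. What that number stands for is not given in the sources used here, and it cannot be told apart from genotype. No mouse without BCR-ABL was analysed here.

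Eya proteins are transcriptional coactivators that also act as phosphatases, and Six-family proteins are the homeodomain factors that bring them to DNA. Together with Dach and Pax proteins they form a network first described in eye development, and in mammals they are best known from the ear, kidney, muscle and craniofacial tissues. Loss of one copy of EYA1 causes branchio-oto-renal syndrome in humans.

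Each of the 14 libraries was made from 200000 sorted cells of 1 mouse. Library totals were between 15703702 and 19914531 reads in CP CML and between 16145537 and 19399720 in BC CML. Levels are given in CPM, the reads of a gene scaled to a library of 1000000 reads. Reads of Mir142 numbered between 302 and 650 in the CP CML libraries and 0 in every BC CML library, as the labels state. The T cell genes Cd3d, Cd3e, Cd3g and Cd247 were each above 250 CPM on average in both groups. The Mir142 gene yields the following mature strands, shown because the absence of this gene defines the BC CML group. Capitals mark the seed, bases 2 to 8, and the sequences are those of RefSeq on GRCm38.p6, at chr11:87756867-87756887 and chr11:87756903-87756925 on the plus strand.
mmu-miR-142a-5p: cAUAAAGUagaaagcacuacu
mmu-miR-142a-3p: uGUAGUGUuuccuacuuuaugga

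Matches to these seeds were searched in the longest annotated 3′UTR of each member (GENCODE vM21, mm10), and all 6 members had one. Eya1 (a 3′UTR of 1962 bases), Eya2 (613 bases) and Eya3 (3406 bases) held no 8mer or 7mer match to either strand. Six5 held an 8mer match to miR-142a-3p, which 3.04% of the 11523 tested genes with a 3′UTR also held. Six4 held a 7mer-m8 match to each strand and Eya4 a 7mer-m8 match to miR-142a-5p. A match of any of these types was present in 12.1% of tested genes for the 3p strand and in 23.4% for the 5p strand. The matched sites are shown with 6 bases on each side and the match in capitals, because they are the member sequences that the deleted microRNA could pair with. They lie at chr7:19097833-19097852 (plus strand) for Six5, at chr12:73103900-73103918 and chr12:73106997-73107015 (minus strand) for Six4, and at chr10:23105661-23105679 (minus strand) for Eya4.
Six5, 3p, 8mer: agtcccACACTACAgctctc
Six4, 3p, 7mer-m8: ccccctACACTACttaatc
Six4, 5p, 7mer-m8: atttggACTTTATttttaa
Eya4, 5p, 7mer-m8: actgtgACTTTATtagcag
A match is a description of letters and not a measured site, and its absence from this window says nothing more.

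The comparison asked how T cells of BC CML mice differ from those of CP CML mice. Among the 4 Eya genes, Eya1 and Eya2 were higher in BC CML, Eya3 was lower, and Eya4 was near 0 in both groups. Genes were tested across the whole table with edgeR's quasi-likelihood test, and 65.2% of the 12248 genes tested had an adjusted p below 0.05. The threshold was also passed by 2 of the other 3 members tested, Eya2 and Eya3, and missed by Six5. Eya4 and Six4 did not pass the filter on low counts and have no test. That count is close to the background share. The mice of the groups did not overlap for the same 2 of these 3 members, against 36.9% of all genes tested, and with so few members nothing is read from the difference. Eya1 did not overlap either, which its choice had fixed.

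Positions are those of the counts table on mm10. Eya1 (chr1:14168958-14310199, minus strand) encodes a coactivator and tyrosine phosphatase of organ development. In CP CML its reads per library were 5, 5, 0, 0, 2, 3, 2 and 0 in mice 1 to 8, with 5 of 8 mice having any read. In BC CML the reads were 1240, 799, 947, 1292, 809 and 1064 in mice 1 to 6. Every BC CML library was far above every CP CML library. The mean level was 0.124 ± 0.121 CPM in CP CML (SD, n = 8) against 55.7 ± 10.2 CPM in BC CML (SD, n = 6). The CP CML total of 17 reads against 6151 gave a ratio of 462, with a 95% interval from 288 to 793 by the exact binomial method, which covers counting error only. The fitted log2 fold change was 8.77 (SE 0.25), the third highest of all genes tested. Eya1 passed the filter through the BC CML libraries, since all 6 of them and 0 of the CP CML libraries had 10 or more reads. In bulk RNA, a larger share of cells expressing the gene and more RNA per cell cannot be told apart.

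Among the BC CML mice, Eya1 varied with a coefficient of variation of 18.4%, against 9.60% for Eya2 and 3.97% for Eya3. Mice 1 and 4 had the highest Eya1 levels, 68.7 and 67.5 CPM, and mouse 5 the lowest, 43.8 CPM. The other 3 mice lay between 49.7 and 54.7 CPM.

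Eya2 (chr2:165595028-165771727, plus strand) encodes a second coactivator of the family. Its reads ranged from 368 to 607 with a median of 457 in CP CML and from 619 to 797 with a median of 717.5 in BC CML. The level was between 22.5 and 30.4 CPM in CP CML, with a median of 26.0 CPM, and between 33.5 and 41.8 CPM in BC CML, with a median of 40.8 CPM. All 6 BC CML values exceeded the highest CP CML value. The means were 26.6 ± 2.92 CPM (SD, n = 8) and 38.9 ± 3.74 CPM (SD, n = 6), a log2 fold change of 0.55 (SE 0.0751, adjusted p = 4.88e-06 by edgeR). In BC CML, mice 5 and 6 stood at 33.5 and 34.9 CPM and the other 4 between 40.1 and 41.8 CPM. The same mice 5 and 6 had the lowest sums of NK and innate lymphoid markers, 543 and 540 CPM against 610 to 681 CPM in the other 4, and the highest sums of myeloid markers, 967 and 1335 CPM. The NK and innate lymphoid sum includes Eomes, Rora and Gata3, which the paper also lists as markers of T cell subsets. The other marker sums did not set mice 5 and 6 apart. Whether any cell type or T cell state had a part in the level of Eya2 was not tested.

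Eya3 (chr4:132639046-132724765, plus strand) encodes a coactivator of the family that is expressed in many tissues. Its level was between 88.9 and 94.1 CPM in CP CML, with a median of 92.6 CPM, and between 65.8 and 73.7 CPM in BC CML, with a median of 71.2 CPM. All 6 BC CML values were under the lowest CP CML value. The means were 91.8 ± 2.08 CPM (SD, n = 8) and 70.6 ± 2.81 CPM (SD, n = 6), a log2 fold change of -0.38 (SE 0.0332, adjusted p = 2.12e-08 by edgeR). Eya3 varied least among the mice of any member, with a coefficient of variation of 2.26% in CP CML.

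Eya4 (chr10:23104168-23350786, minus strand), known from inherited hearing loss and heart disease, had 0 reads in all 8 CP CML libraries. Its single read in BC CML came from mouse 4. The 3 reads that a count of 0 allows correspond to 0.0214 CPM over the 140325688 CP CML reads. No difference between the groups was detectable for Eya4 at this depth.

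Six4 (chr12:73100259-73113245, minus strand), a homeodomain factor of muscle development, likewise had 0 reads in the CP CML libraries and a single read in BC CML, from mouse 1. Its expression was not detectable beyond that read.

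Six5 (chr7:19094544-19098345, plus strand) encodes the homeodomain factor whose gene lies beside Dmpk, the myotonic dystrophy kinase gene. Its reads were 6, 5, 11, 5, 11, 13, 1 and 8 in CP CML mice 1 to 8 and 10, 18, 12, 17, 10 and 10 in BC CML mice 1 to 6. The groups overlapped, since CP CML mice 3, 5 and 6 lay within the range of the BC CML mice. The means were 0.426 ± 0.228 CPM (SD, n = 8) and 0.708 ± 0.244 CPM (SD, n = 6), a log2 fold change of 0.71 (SE 0.346) that did not pass the threshold (adjusted p = 0.0793 by edgeR). With edgeR's likelihood ratio test the adjusted p was 0.0439, and without CP CML mouse 5 it was 0.0485, both past the threshold. All other settings in which Six5 could be fitted missed it, up to an adjusted p of 0.221 by edgeR with mice blocked by replicate number. Six5 passed the filter with 10 or more reads in 6 of 6 BC CML and 3 of 8 CP CML libraries. It was the most abundant of the Six-family genes described here, and its level per kb of gene length was above that of 3.33% of the genes tested in BC CML.

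**Figure D1:**
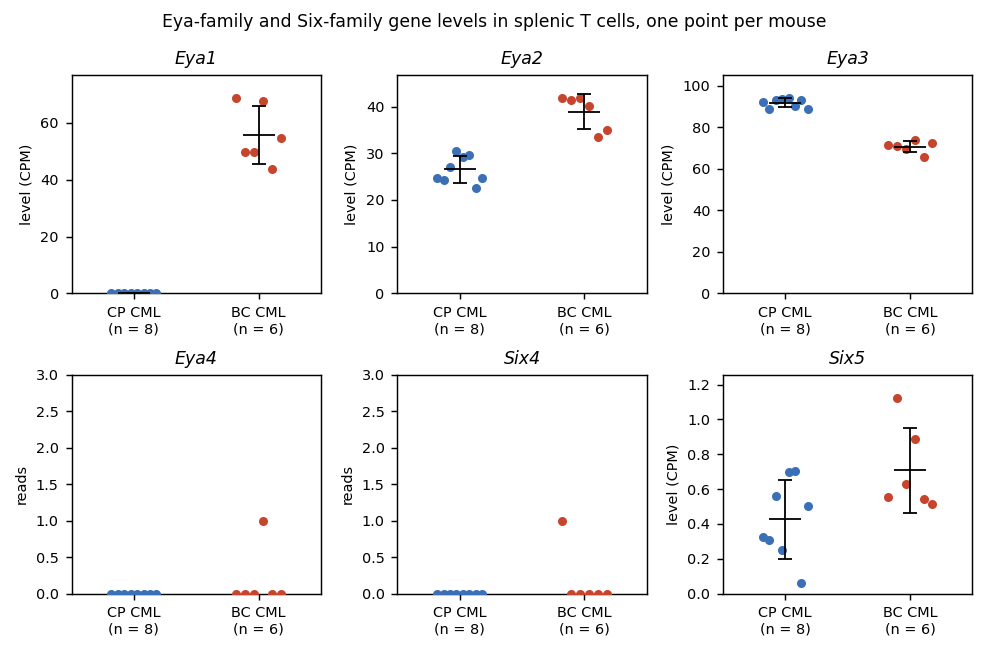
Levels of the 6 members in each mouse, in CPM for Eya1, Eya2, Eya3 and Six5 and in reads for Eya4 and Six4, with CP CML in blue (n = 8) and BC CML in red (n = 6). Points are mice and black bars give the mean ± SD. The groups do not overlap for Eya1, Eya2 and Eya3, overlap for Six5, and hold at most 1 read for Eya4 and Six4.

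Levels of different genes were compared after dividing CPM by the gene length in kb given in the table. In CP CML the order was Eya3 at 17.7 ± 0.401 CPM per kb, Eya2 at 9.70 ± 1.07, Six5 at 0.150 ± 0.0800 and Eya1 at 0.0280 ± 0.0274, each with its SD over 8 mice. Eya3 and Eya2 did not overlap, nor did Eya2 and Six5, whereas the ranges of Six5 and Eya1 did. In BC CML the order was Eya2 at 14.2 ± 1.36 CPM per kb, Eya3 at 13.6 ± 0.542, Eya1 at 12.6 ± 2.31 and Six5 at 0.248 ± 0.0857 (SD, n = 6). The ranges of Eya2, Eya3 and Eya1 overlapped, from 12.2 to 15.3, from 12.7 to 14.2 and from 9.90 to 15.5 CPM per kb, so that their order is within the spread between mice. Eya2 was above Eya3 in 0 of 8 CP CML mice and in 4 of 6 BC CML mice. Eya1 was above Eya2 in 2 of 6 BC CML mice.

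The length-scaled levels of the Eya genes summed to 27.4 ± 1.27 CPM per kb in CP CML and 40.4 ± 3.60 CPM per kb in BC CML. Eya2 and Eya3 together came to 27.4 ± 1.28 and 27.8 ± 1.66 CPM per kb, with overlapping ranges of 26.0 to 29.2 and 24.9 to 29.1. In CP CML, Eya3 made up 64.6 ± 2.33% of the summed Eya level and Eya2 35.3 ± 2.36%, while Eya1 made up 0.104 ± 0.103%, with the SD over 8 mice. In BC CML the shares were 33.9 ± 2.09% for Eya3, 35.2 ± 2.37% for Eya2 and 31.0 ± 3.19% for Eya1 (SD, n = 6). The shares sum to the whole in each mouse and include Eya1, which was chosen on this contrast, so they are a description, and a share does not show the change in level of its gene. They were not tested. Among the genes tested, the length-scaled level of Eya1 was above that of 0.245% in CP CML and of 58.0% in BC CML.

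**Figure D2:**
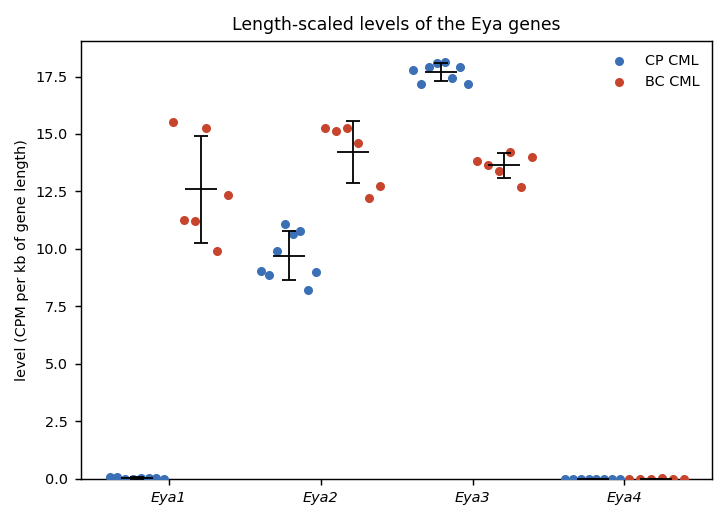
Length-scaled levels of Eya1, Eya2, Eya3 and Eya4 in CPM per kb of gene length, with points for mice (CP CML blue, n = 8; BC CML red, n = 6) and black bars for the mean ± SD. In BC CML the 3 expressed genes lie between 9.90 and 15.5 CPM per kb and overlap, whereas in CP CML Eya3 lies above Eya2 and Eya1 is near 0.

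How many genes of the table had a pattern like that of Eya1 was described with a pair of limits, at most 5 reads in every CP CML library and at least 10 CPM in every BC CML library. The limits were set with the values of Eya1 known, and the first equals its highest CP CML count, so the count below is a description that depends on them. Of the 10738 genes within the first limit, 2 met the second, Eya1 and Klra8. Klra8, an NK cell receptor gene of a multigene family whose reads can be split among near-identical copies, had 0 to 5 reads in the CP CML libraries and 185 to 326 in BC CML, and its lowest BC CML level of 10.01 CPM lay at the limit, against 43.8 CPM for Eya1. Just outside the first limit were Styk1, whose CP CML libraries reached 12 reads and whose BC CML libraries started at 34.6 CPM, and Bahcc1, at 18 reads and 33.6 CPM. With the second limit at 1 CPM, 13 genes qualified, among them the homeobox gene Hoxa9, with 0 reads in CP CML and 433 in BC CML. In the reverse direction, 1 gene met the limits, the deleted Mir142.

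**Figure D3:**
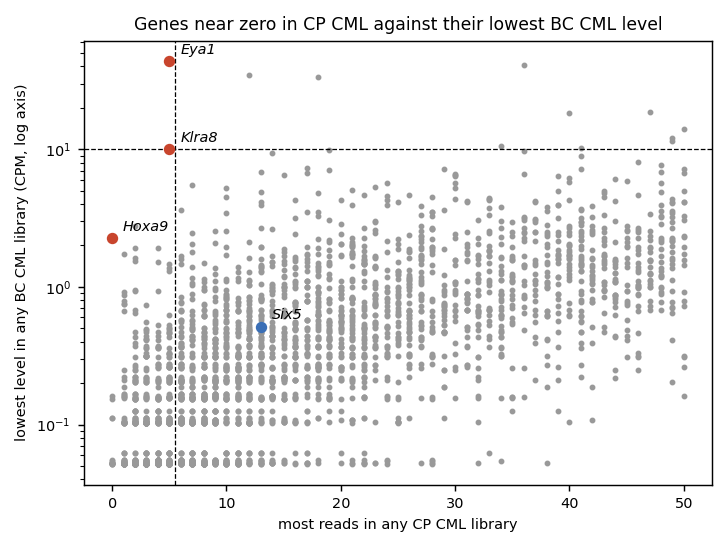
Each point is a gene with at most 50 reads in any CP CML library and a read in every BC CML library. The horizontal axis gives its most reads in any CP CML library and the vertical axis its lowest level in any BC CML library (CPM, log axis), and dashed lines mark 5 reads and 10 CPM. Eya1 at 43.8 CPM and Klra8 at 10.01 CPM lie in the upper left, while Hoxa9 and the member Six5 lie lower.

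The other Six-family genes described here, Six2, Six3 and Six6, did not pass the filter. Six2 had 1 read in each group, Six3 had 1 in CP CML and 4 in BC CML, and Six6 had 0.

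Of the 10 Dach and Pax genes listed as partners of Eya and Six-family proteins, a list without Pax5, 8 had at most 10 reads over all libraries. Dach2 passed the filter but not the threshold, at 0.426 ± 0.226 CPM in CP CML and 0.693 ± 0.191 CPM in BC CML (adjusted p = 0.0614 by edgeR). Dach1 did not pass the filter. It had 33 reads in CP CML, at most 9 in a mouse, and 108 in BC CML, of which mouse 6 gave 50 and mouse 5 gave 23. With no filter on low counts, where 49.5% of 17599 genes passed the threshold, Dach1 had a log2 fold change of 1.99 (adjusted p = 0.0179 by edgeR). Pax5, which defines B cells and stands among the B cell markers, had 389 reads in CP CML and 983 in BC CML and rose, with a log2 fold change of 1.67 (adjusted p = 0.00127 by edgeR).

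Genes known as partners, regulators or targets were taken as lists, each described by its counts beside a median log2 fold change of -0.01 over all genes tested. Among all genes tested, 32.6% rose and 32.7% fell at the threshold. Of the 5 tested Groucho/TLE genes, which encode corepressors that bind Six-family proteins, 1 rose, 3 fell and 1 did not pass, with a median of -0.11. Tle1 fell by 1.13 on the log2 scale, from 16.5 ± 2.35 to 7.52 ± 1.25 CPM, with no overlap between the mice. Tle2 rose from 2.09 ± 0.661 to 4.61 ± 1.42 CPM, a log2 fold change of 1.13. Tle3, at 230 CPM in CP CML, had an adjusted p of 0.131.

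Of the 8 coactivator and corepressor genes, 3 rose and 4 fell, with a median of -0.07. The largest difference was that of Ski, a corepressor related to Dach, which fell by 0.39 on the log2 scale, from 177 ± 7.81 to 135 ± 10.1 CPM. Crebbp and Sin3a, encoding an acetyltransferase and a scaffold of histone deacetylases, fell by 0.22 and 0.21.

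Eya phosphatases remove the tyrosine phosphate that Baz1b places on the histone variant H2AX. Of the 8 genes of this damage response list, 0 rose, 3 fell and 5 did not pass, with a median of -0.07. Atm, a kinase activated by DNA breaks, fell by 0.29 on the log2 scale, and Atr and Mdc1 by 0.15 and 0.13. H2afx, the H2AX gene, was 26.1 ± 2.21 CPM in CP CML and 23.8 ± 4.26 CPM in BC CML (adjusted p = 0.209), and Baz1b had an adjusted p of 0.194, both by edgeR.

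Of the 12 tested genes of the other reported partners and regulators, 2 rose, 2 fell and 8 did not pass, with a median of 0.00 to 2 decimals. Crk, an adaptor protein gene, rose from 105 ± 6.20 to 214 ± 12.8 CPM, a log2 fold change of 1.02 with no overlap between the mice. Hipk2, a kinase gene, fell by 0.66 and Tmem173, which encodes the innate sensor adaptor STING, by 0.32 on the log2 scale. Myc was 124 ± 15.4 CPM in CP CML and 126 ± 29.1 CPM in BC CML (adjusted p = 0.889 by edgeR).

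Of the 18 genes reported elsewhere as targets of Eya and Six-family proteins, 7 were tested, 10 had at most 10 reads over all libraries and 5 had 0 reads. Of the tested genes 4 rose, 1 fell and 2 did not pass, with a median log2 fold change of 0.35. Over all genes tested 32.6% rose and 32.7% fell, and with 7 genes tested here nothing is read from the difference. Mef2c, a MADS box transcription factor gene also used by B and myeloid cells, rose from 5.17 ± 2.51 to 60.4 ± 14.7 CPM, a log2 fold change of 3.56. Ccnd1, the cyclin D1 gene, was 1.41 ± 1.23 CPM in CP CML against 6.60 ± 4.07 CPM in BC CML, and the log2 fold change was 2.23 with overlapping mice. Slc12a2, an ion cotransporter gene, rose, with a log2 fold change of 0.61. Myog and Sall1, targets known from muscle and kidney, had 0 reads in all 14 libraries. Over all these lists, 56.1% of the 41 tested genes passed the threshold, against 65.2% of all genes tested.

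**Figure D4:**
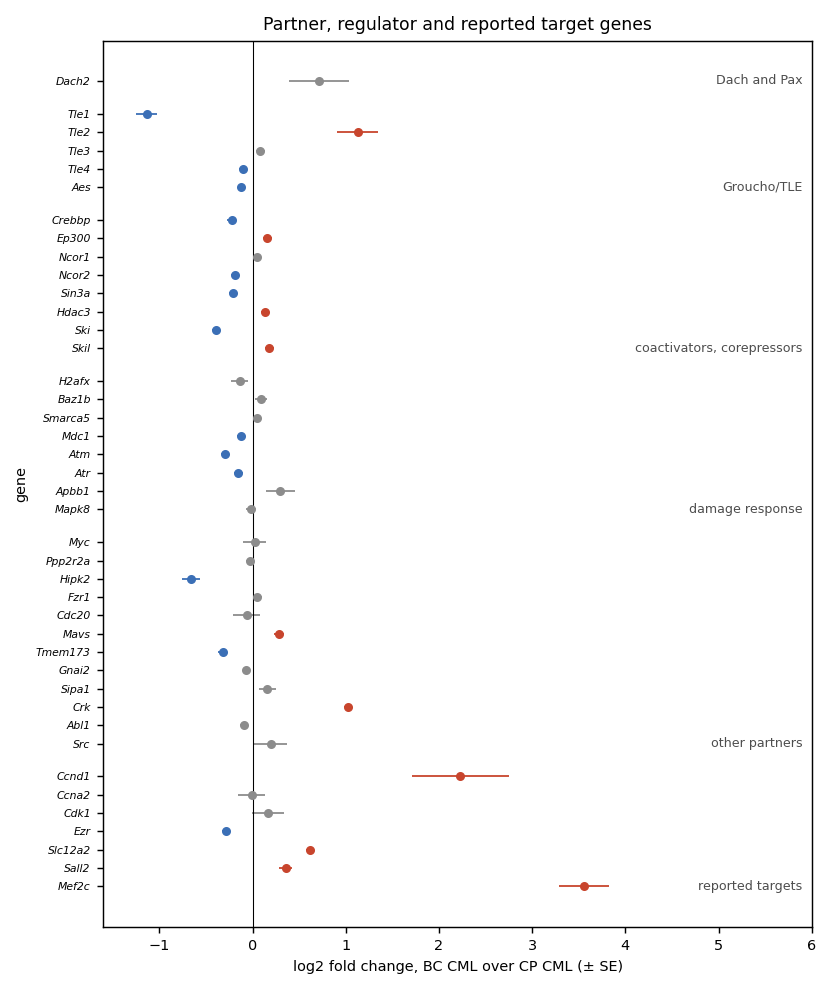
Log2 fold change of BC CML over CP CML (± SE) for the 41 tested genes of the partner, regulator and target lists, one row per gene and grouped by list. Red marks genes that rose and blue genes that fell at an adjusted p below 0.05, and grey the others. Most lie within 0.5 of 0 on the log2 scale, with Mef2c at 3.56, Ccnd1 at 2.23 and Tle1 at -1.13 (edgeR) the farthest from 0.

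The genes within 1 Mb of Eya1 were examined because neighbours can share a chromatin domain. The table holds 7 such genes, of which 3 were tested. Ncoa2, a nuclear receptor coactivator gene 795 kb away, fell by 0.25 on the log2 scale, from 287 ± 13.4 to 240 ± 13.7 CPM. Tram1, a translocation protein gene at 579 kb, fell by 0.11, and Lactb2 at 508 kb was 23.5 ± 2.46 and 24.0 ± 2.00 CPM (adjusted p = 0.722 by edgeR). None of these 3 rose, against 32.6% of all genes tested. On the other side, Msc, the gene of the transcription factor musculin at 443 kb, was not tested under the filter. It had 4 reads in CP CML and 38 in BC CML, its lowest BC CML level of 0.111 CPM lay just above its highest CP CML level of 0.109 CPM, and the ratio was 12.1 with a 95% counting interval from 4.37 to 46.8. With no filter on low counts Msc had a log2 fold change of 3.32 (adjusted p = 5.04e-05 by edgeR), and 49.5% of all genes passed the threshold there. Xkr9, Gm5523 and Trpa1 had at most 2 reads in either group. In the deposited table no other gene overlapped a member. GENCODE vM21 places Gm37444 (same strand) and Gm22616 (other strand) within Eya1, Gm28163 and Gm11460 (other strand) within Eya2, and Gm24655 (same strand) within Eya4, and how the authors' counting treated them is not given in the sources used here.

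**Figure D5:**
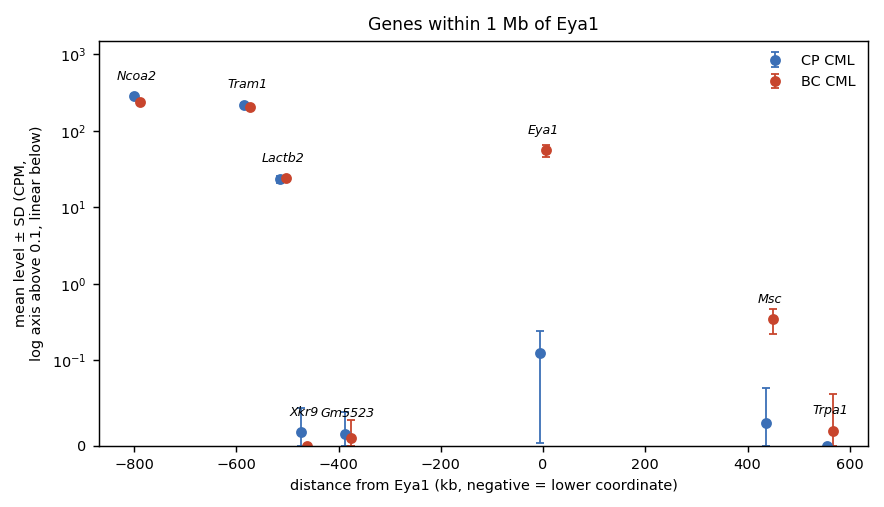
Mean level ± SD (CPM, log axis above 0.1 and linear below, bars ending at 0) of Eya1 and the 7 genes within 1 Mb, against the distance from Eya1 in kb. CP CML is blue (n = 8) and BC CML red (n = 6). Ncoa2 and Tram1 are lower in BC CML, by 0.25 and 0.11 on the log2 scale, and Lactb2 did not pass the threshold, while Eya1 goes from 0.124 to 55.7 CPM and Msc from 0.0268 to 0.346 CPM.

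For the other members the nearest tested gene on each side was taken. Next to Six5, Dmpk, 0.724 kb before it, rose from 0.543 ± 0.286 to 2.45 ± 1.61 CPM (log2 fold change 2.13), and Fbxo46 fell by 0.33. Next to Eya3, Xkr8, which ends 0.139 kb beyond it on the other strand, rose by 0.75 while Eya3 fell, and Ptafr rose by 2.28. Next to Eya2, Zmynd8 and Trp53rka fell by 0.34 and 0.16. Next to Eya4, Tbpl1 and Rps12 fell by 0.67 and 0.78, and next to Six4, Mnat1 and Ppm1a did not pass the threshold. The strand setting of the authors' counting is not given in the sources used here, and where it ignored strand, reads running past the ends of Eya3 and Xkr8 could have been counted for either gene.

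The table of RefSeq promoters used here (GRCm38.p6) matched 4 of the 6 members, Eya3, Eya4, Six4 and Six5, and those of Eya1 and Eya2 were not searched. Each sequence held the 250 bases before and the 50 after a start. Their GC content was between 57.3% and 69.3%, against a median of 52.7% and an upper quartile of 61.7% over 32851 promoters. Their CpG count was between 15 and 36, against a median of 7 and an upper quartile of 20. The Six4 sequences lay under both upper quartiles. The sequences of Eya4 overlapped each other, as did those of Six4. The motifs searched on both strands were TGATAC and the MEF3 core TCAGGT, both bound by Six-family proteins, the E-box CAGGTG, the Runx motif TGTGGT and the TCF/LEF motif TTCAAAG. A single match was found, the MEF3 core in one of the promoters of Six4, which 14.5% of all promoters also held.

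The genes whose pattern was most like that of Eya1 over the 14 libraries, by Pearson's r of log2 CPM with a prior count of 2, were Tlr12 (r = 0.995), Tmem59 (0.992), Stau1 (0.992), Evi5 (0.992) and Xpr1 (0.992). These values rest on the difference between the groups, and 610 of 12247 genes had an r above 0.95. Within the 6 BC CML mice the same genes had an r with Eya1 between -0.12 for Evi5 and 0.587 for Xpr1. Within the 8 CP CML mice it was between 0.526 for Tmem59 and 0.781 for Tlr12, where Eya1 had at most 5 reads in a library. The genes were picked by r over all 14 libraries, so their r within either group is not independent of that choice. Evi5, a GTPase-activating protein gene, rose from 4.57 ± 0.533 to 34.8 ± 1.40 CPM, and Tlr12, a Toll-like receptor gene, from 15.1 ± 0.653 to 26.8 ± 0.549 CPM.

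Markers of other cell types and T cell states moved with the groups in the same libraries. Of all genes tested, 32.6% rose and 32.7% fell. The summed level of the 9 myeloid markers was between 60.0 and 437 CPM in CP CML and between 525 and 1335 CPM in BC CML, and 8 of the 9 rose. The 7 stem and progenitor markers summed to between 4.24 and 10.3 CPM in CP CML and between 24.8 and 52.0 CPM in BC CML, and 4 of 5 tested rose, Kit to 25.4 ± 7.89 CPM among them. In CP CML the 9 NK and innate lymphoid markers, Klra8 included, summed to between 278 and 318 CPM. In BC CML their sum was between 540 and 681 CPM. Of the 8 tested, 6 rose and 1 fell (Zbtb16, from 9.24 to 1.93 CPM), and Klra4 had 0 reads. Eomes was the highest of them in BC CML, at 256.5 CPM against 77.5 CPM in CP CML. The paper also lists Eomes as a marker of CD8 central memory T cells, and Rora and Gata3 for CD4 effector T cells. This sum therefore does not separate NK and innate lymphoid cells from T cell states. The 6 B cell markers summed to between 35.8 and 131 CPM and between 64.1 and 357 CPM, with 4 risen. All 6 naive T cell markers fell, from sums of 4467 to 5786 CPM to sums of 2398 to 3530 CPM, while 6 of 9 effector, memory and activated markers rose and 1 fell. The 11 T cell markers summed to between 4180 and 4820 CPM in CP CML and between 5306 and 5567 CPM in BC CML, with 5 risen, Cd8a by the most (log2 fold change 0.87), and 2 fallen, Cd4 by 0.73 and Cd247 by 0.32 on the log2 scale. Of 4 regulatory T cell markers 1 rose, Ikzf2 by 0.62, and 2 fell, Foxp3 by 1.73 and Ctla4 by 1.34 on the log2 scale. The 10 stromal, endothelial and muscle markers summed to between 145 and 182 CPM and between 133 and 185 CPM, nearly all of it Pecam1, with Des at 0 reads and 0 of 3 tested passing. The 5 erythroid markers had overlapping sums, and 1 of 4 tested rose.

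Within BC CML, mouse 1, with the highest Eya1 level of 68.7 CPM, had a myeloid sum of 525 CPM, the lowest, and a stem and progenitor sum of 29.6 CPM. Mouse 4, at 67.5 CPM of Eya1, had a myeloid sum of 889 CPM and a stem and progenitor sum of 40.7 CPM. Mouse 6, at 54.7 CPM of Eya1, had the highest of both sums, 1335 and 52.0 CPM. Mice 2 and 3 had nearly the same Eya1 level, 49.8 and 49.7 CPM, with myeloid sums of 716 and 593 CPM and stem and progenitor sums of 41.5 and 24.8 CPM. Mouse 5, with the lowest Eya1 level of 43.8 CPM, had sums of 967 and 33.1 CPM. The part of these cell types in the levels of Eya1 and Eya3 was not tested.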

How the data were processed

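RNA was extracted from sorted spleen T cells, libraries were made with the Kapa mRNA HyperPrep kit and sequenced as paired reads of 101 bases. Per the paper's methods and the submitters' processing notes, the authors trimmed reads with Trimmomatic and FASTP, aligned them to mm10 with STAR 2.6.0 and counted them per gene with HTSeq 0.11.1. The deposited values are raw read counts of 24091 genes, with no normalization. The annotation and strand setting used for counting are not given in the sources used here.

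Mice were grouped by their labels, 8 CP CML and 6 BC CML. Each label names a separate mouse, and replicate libraries differed by more than sampling noise (chi-square per degree of freedom between 3.03 and 22.8). Genes were kept by filterByExpr (minimum count 10, minimum total 15), scaled by TMM and tested with edgeR 4.0.16 (glmQLFit with robust estimation, glmQLFTest) in R 4.3.3, without covariates and with Benjamini-Hochberg adjustment at 0.05 over 12248 genes. The standard error was derived from the fold change and the F statistic. The study used edgeR's likelihood ratio test, which was tried as an alternative. CPM used library totals times the TMM factor, and log2 CPM a prior count of 2. Intervals and floors (3 reads) cover counting error only. The fit was tested on simulated counts.

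The members, the partner and marker lists and the rule for named genes were chosen with earlier results of these data known. The rule named the 6 members, Mir142, at most 3 called genes per partner list with the largest change, the tested genes within 1 Mb of Eya1, the nearest tested gene on each side of other members, and the 5 genes most like Eya1. Other genes given with values, such as Styk1, Bahcc1, Hoxa9, Dach1, Msc, Tle3, Myc and H2afx, were named after their values were seen. Results were recomputed with the likelihood ratio test, with DESeq2 1.42.0, with RLE scaling or library totals in place of TMM, without the filter or keeping genes over 1 CPM in 6 or more libraries, with mice blocked by replicate number, and leaving out 1 mouse at a time. Replicate numbers did not pair the mice, which are different animals. Their correlations of deviations were between -0.273 and 0.356 over 6 pairs. Protein sequences were not used here, and some genes are not reported here.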

Additional observations from a re-analysis of the deposited data

Results flagged for a closer look

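The total of BC CML replicate 2, 16145537 reads, lay apart from the other BC CML totals, the nearest of which was 18319039. Its gap was 0.668 of the group's range, above the critical value of 0.625 for 6 samples. Of 31 groups of values examined, 1 stood apart, where chance alone gives 1.55. Without this library the log2 fold change was 8.80 for Eya1, 0.53 for Eya2, -0.38 for Eya3 and 0.55 for Six5, the last with an adjusted p of 0.193 by edgeR.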

How the results depend on the processing

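Eya1, Eya2 and Eya3 kept their direction, and Eya2 and Eya3 their side of the threshold, under all 7 alternatives and with each of the 14 mice left out. Over the alternatives, the log2 fold change was between 8.59 and 8.85 for Eya1, 0.50 and 0.56 for Eya2, and -0.39 and -0.37 for Eya3. With single mice left out it was between 8.56 and 9.07, 0.52 and 0.59, and -0.39 and -0.36. Six5 passed the threshold with edgeR's likelihood ratio test (log2 fold change 0.71, adjusted p = 0.0439) and without CP CML replicate 5 (adjusted p = 0.0485). Over its other alternatives its adjusted p was at most 0.221, and with single mice left out its log2 fold change was between 0.55 and 0.84. It could not be fitted with the filter at 1 CPM or without CP CML replicate 3 or 6, since it then failed the filter. The cause was not tested. Blocking by replicate number gave a log2 fold change of 8.59 for Eya1, 0.50 for Eya2, -0.38 for Eya3 and 0.57 for Six5 (adjusted p = 0.221), and no member's call changed. The number of genes called was between 7318 and 8719 over the alternatives and between 7721 and 7966 with single mice left out, against 7986. With a prior count of 0.5, 1 of the 5 genes most like Eya1, Tlr12, was among the 5 again. Library size alone moved the mean levels of Eya1, Eya2, Eya3 and Six5 by less than their SD in both groups. Depth limits Eya4, Six4, Six2, Six3 and Six6, which had at most 4 reads in a group.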
